A study of Homo sapiens with 2 samples.

Results

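The genes described here are 37 genes of mitosis and the kinetochore, the protein assembly that ties a chromosome to the spindle. They were chosen by name and role, with earlier results of these data known, and every probe set annotated with exactly 1 gene symbol, where that symbol was 1 of the 37, was taken. All 37 genes were measured, by 64 of the 29493 probe sets with 1 symbol, out of 16716 measured genes in all. A further probe set annotated to both CENPA and SLC35F6 was left out. The 2 samples, labelled replicates 1 and 2, came from 1 human lymphoblastoid cell line, a B-cell line made immortal with Epstein-Barr virus, and the labels name no treatment. The labels write the line as GM06690 in the titles and as GM06990 in the growth protocol, and they do not say whether the replicates came from separate cultures. Total RNA of each sample went onto 1 Affymetrix U133 Plus 2.0 expression array. The line is the only group, so no comparison between conditions was possible and no p-values are given.

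A dividing cell enters mitosis when CDK1 is switched on by cyclins A and B. Aurora and Polo-like kinases then build the spindle, and the spindle checkpoint holds the anaphase-promoting complex in check until every kinetochore is attached. Release of that complex destroys securin and cyclin B, separase cuts cohesin, and the cell divides. Most of the genes are transcribed in a wave late in the cell cycle, through the transcription factors B-MYB and FOXM1 and the MuvB complex, which sits on a promoter element called the CHR (cell cycle genes homology region). The CCAAT box, bound by the factor NF-Y, is the other element known from these promoters. Cells immortalised by Epstein-Barr virus proliferate in culture, unlike resting blood B cells.

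Of the 37 genes, 29 had a promoter window in the RefSeq table (GRCh38.p14), which runs from 250 bases before to 50 bases after each annotated start. The windows were searched on both strands for the CHR core TTTGAA and for CCAAT. The CHR core was found in 21 of the 29 genes (72.4%), against 14.1% of 6920 other genes above background on the arrays and 18.2% of all 27305 genes in the table. CCAAT was found in 23 of 29 (79.3%), against 44.7% and 39.7%. At least 2 CCAAT were found in 15 of 29 genes (51.7%), against 17.3% and 12.9%. Both elements in 1 window were found in 16 of 29 (55.2%), against 5.94% and 7.26%. The base composition of the windows was not matched. These 9 stretches are shown because they hold the CHR core before the start, in genes of different roles. Each gives the 120 bases before the start, 5′ to 3′ along the gene, and for CDK1 the second of its 2 annotated starts was taken. Capitals mark both motifs, on either strand. A CCAAT on the other strand reads ATTGG.
CCNB2, chr15:59105026-59105145, plus strand: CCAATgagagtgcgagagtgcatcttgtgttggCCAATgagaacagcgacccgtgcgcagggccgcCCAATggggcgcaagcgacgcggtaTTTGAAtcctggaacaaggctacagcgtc
PLK1, chr16:23678769-23678888, plus strand: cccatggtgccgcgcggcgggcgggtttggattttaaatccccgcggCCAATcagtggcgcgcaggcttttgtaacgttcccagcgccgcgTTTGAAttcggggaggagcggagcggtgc
PRC1, chr15:90994536-90994655, minus strand: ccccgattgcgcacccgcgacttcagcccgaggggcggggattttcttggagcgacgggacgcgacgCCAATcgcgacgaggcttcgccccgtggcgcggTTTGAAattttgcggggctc
ESPL1, chr12:53268179-53268298, plus strand: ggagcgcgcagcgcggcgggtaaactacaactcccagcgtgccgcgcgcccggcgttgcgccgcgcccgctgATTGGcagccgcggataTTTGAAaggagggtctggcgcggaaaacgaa
BUB1B, chr15:40160949-40161068, plus strand: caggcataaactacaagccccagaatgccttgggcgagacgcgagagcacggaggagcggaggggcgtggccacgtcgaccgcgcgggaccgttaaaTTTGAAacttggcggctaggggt
CDCA8, chr1:37692396-37692515, plus strand: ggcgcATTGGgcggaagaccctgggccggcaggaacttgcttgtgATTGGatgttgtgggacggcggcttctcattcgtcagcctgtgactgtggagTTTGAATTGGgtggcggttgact
MKI67, chr10:128126424-128126543, minus strand: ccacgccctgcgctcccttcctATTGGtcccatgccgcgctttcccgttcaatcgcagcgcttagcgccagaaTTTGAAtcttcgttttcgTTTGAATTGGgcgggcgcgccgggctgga
CDK1, chr10:60778358-60778477, plus strand: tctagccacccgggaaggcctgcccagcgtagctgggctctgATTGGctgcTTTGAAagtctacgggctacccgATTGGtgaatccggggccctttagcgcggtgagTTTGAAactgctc
CDC20, chr1:43358861-43358980, plus strand: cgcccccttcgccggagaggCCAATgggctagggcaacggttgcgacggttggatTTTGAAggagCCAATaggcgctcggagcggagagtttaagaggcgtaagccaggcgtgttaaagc

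In CCNB2, PLK1, PRC1, ESPL1, BUB1B and CDCA8, TTTGAA lay on the strand of the gene with its first base 29, 29, 20, 31, 23 and 23 bases before the start. In MKI67 and CDCA8 the last base of TTTGAA was also the first base of ATTGG, so the 2 elements overlapped. In CDC20 the element lay further away, 65 bases before the start. TTTGAA on the strand of the gene with its first base 40 to 10 bases before the start was found in 11 of 29 genes (37.9%), against 0.882% of the other genes above background. This distance was chosen after the positions had been seen, so the share is a description of these genes.

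Other genes had CCAAT without TTTGAA, or neither element. These 3 stretches show CCNB1 and NEK2, each with a pair of CCAAT 32 bases apart, and MYBL2, which had neither in its window.
CCNB1, chr5:69167030-69167149, plus strand: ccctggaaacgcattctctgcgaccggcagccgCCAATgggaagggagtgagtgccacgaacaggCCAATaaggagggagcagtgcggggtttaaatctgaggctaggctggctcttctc
NEK2, chr1:211675622-211675741, minus strand: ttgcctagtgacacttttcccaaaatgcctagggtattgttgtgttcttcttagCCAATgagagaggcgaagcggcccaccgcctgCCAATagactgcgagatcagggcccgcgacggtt
MYBL2, chr20:43666994-43667113, plus strand: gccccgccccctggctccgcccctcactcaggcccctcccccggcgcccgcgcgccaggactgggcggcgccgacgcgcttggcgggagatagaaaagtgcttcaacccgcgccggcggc

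A pair of CCAAT in 1 orientation, 31 to 33 bases apart, was found in 5 of 29 genes (CDK1, CCNB1, CCNB2, NEK2 and SPC25), or 17.2%, against 1.76% of the other genes above background. This spacing too was chosen after the positions had been seen. The variant TTCGAA, which reads the same on both strands, occurred in BUB1 and NDC80, or 2 of 29 genes (6.90%). It occurred in 2.47% of the other genes above background and in 1.82% of all genes in the table. Among the other mitotic genes listed below it occurred in 7 of 70, a larger share than in the 29 genes. CENPE and MYBL2 had none of the 3 motifs in the window. A match describes letters only, and binding was not measured.

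**Figure D1:**
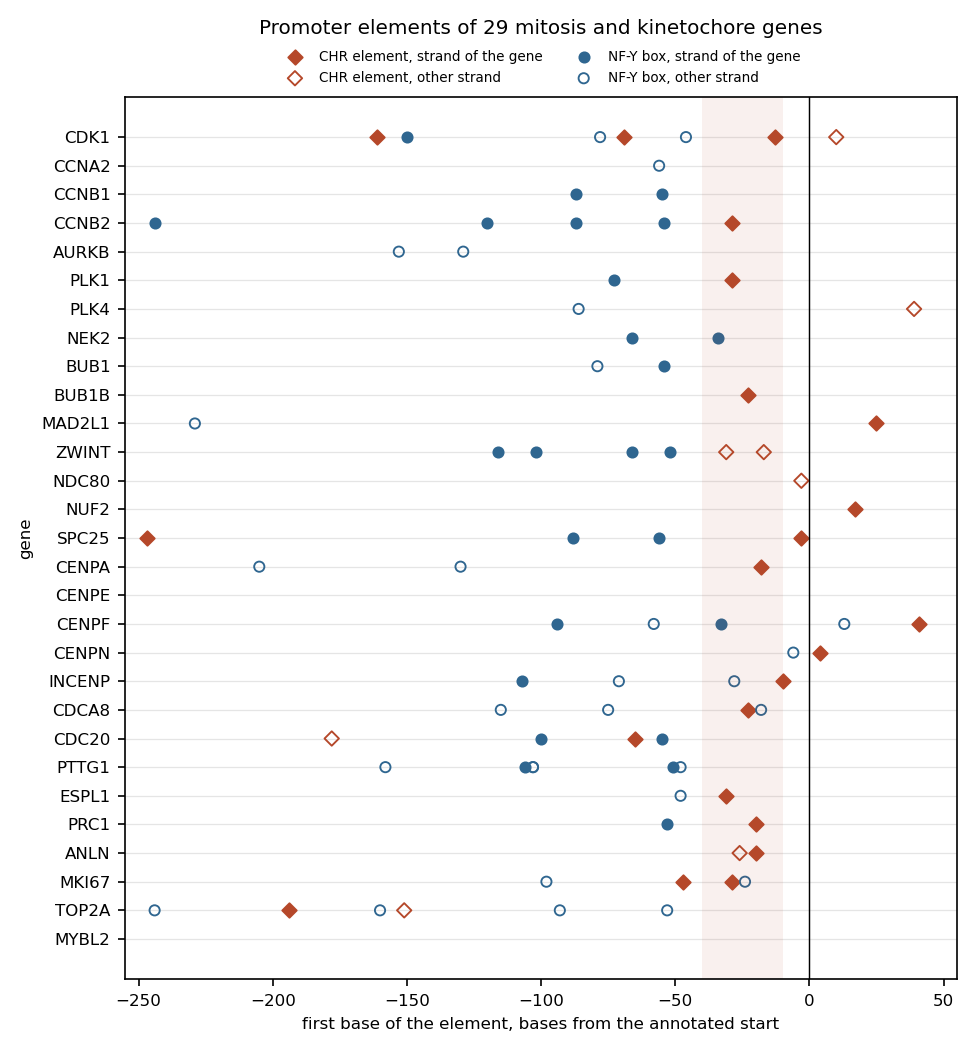
Position of each exact TTTGAA (CHR element, diamonds) and CCAAT (NF-Y box, circles) in the promoter windows of 29 genes, in bases from the annotated start (x axis). Each row is a gene. Filled marks lie on the strand of the gene and open marks on the other, and genes with several annotated starts show the marks of every window. The shaded band covers 40 to 10 bases before the start, where 11 genes have a CHR element on their own strand.

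Signals are RMA values of probe sets, given as log2 intensity. The median intensity was 33.2 and 33.3 on the arrays of replicates 1 and 2. To judge them, 68 genes with a role in other tissues (liver, muscle or pancreas, for example) served as a reference, and their 95th percentile gave each array a background level. The level was a log2 signal of 6.15 in replicate 1 and 6.09 in replicate 2, which are intensities of 71.2 and 68.2. A gene was read from its brightest probe set and called above background only if both arrays exceeded their level. Of the 68 reference genes, 4 were themselves above background by this rule (KRT10, MBP, SFTPB and TNNT3). B-cell markers fitted the label, with 11 of 11 measured markers (of 13 listed) above background, among them MS4A1, which encodes CD20 (13.12 and 13.26 in replicates 1 and 2), and CD79A (11.32 and 11.27). Markers of other blood cells were not above it (0 of 10 for T cells, 0 of 7 for NK cells, 0 of 9 for myeloid cells and 0 of 4 for erythroid cells), with CD3E at 4.51 and 4.46, NCAM1 at 4.79 and 4.89 and CD14 at 3.82 and 3.72. COL1A1, the 1 fibroblast marker of 7 above background (7.35 and 7.13), and CDH1, the 1 epithelial marker of 6 (7.04 and 6.98), were the exceptions.

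All 37 mitosis and kinetochore genes were above background on both arrays, as were 49.3% of all measured genes. Their median signal was 10.54, against 9.16 over all genes above background and 6.10 over all measured genes. A log2 signal of at least 9 on both arrays was reached by 35 of the 37, against 25.8% of all genes. CENPA and INCENP were the exceptions. Probe sets differ in affinity, so these numbers place signals and not amounts of transcript. In RNA from a whole culture, a larger share of cells in mitosis and more transcript per mitotic cell cannot be told apart.

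The kinase at the head of the pathway and its cyclins were far above background on both arrays. CDK1, the kinase that drives entry into mitosis, had log2 signals of 11.81 in replicate 1 and 11.83 in replicate 2. Its further probe sets read 11.51 and 11.58, and 10.99 and 11.04, so all 3 were above background. CCNA2, which encodes cyclin A2, an activator of CDK1 and CDK2, had signals of 10.91 and 10.94, and its second probe set read 10.16 and 10.28. CCNB1, the main cyclin B of human cells, had signals of 12.14 and 12.15. CCNB2, a second B-type cyclin, had signals of 11.82 and 11.81. By their brightest probe sets the replicates differed by at most 0.04 on the log2 scale in these 4 genes, and the second CCNA2 probe set differed by 0.12.

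The 7 kinases had signals from 9.29 to 10.93 as means of both arrays. AURKA, the Aurora kinase of centrosomes and spindle poles, had signals of 10.93 on both arrays, and a second probe set read 10.58 and 10.51. The last AURKA probe set was below background, at 5.50 and 5.74. AURKB, the Aurora kinase of the chromosomal passenger complex, had signals of 10.18 and 10.17. PLK1, the Polo-like kinase needed for spindle formation and mitotic exit, had signals of 9.31 and 9.28. PLK4, which controls the duplication of centrioles, had signals of 9.51 and 9.52. Its other probe sets read 9.37 and 9.48, and 7.84 and 7.96. All 3 PLK4 probe sets were above background and slightly higher in replicate 2. NEK2, a kinase that helps to separate centrosomes, had signals of 9.47 and 9.54, and 8.22 and 8.21 by its second probe set. TTK, also called MPS1, which starts the checkpoint signal at kinetochores, had signals of 10.54 and 10.58.

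BUB1, a checkpoint kinase of the kinetochore, was the gene whose probe sets differed most in their calls. Its brightest probe set had signals of 10.63 in replicate 1 and 10.76 in replicate 2, and another read 9.93 and 10.22. The other 3 of its 5 probe sets were below background, at 5.05 and 5.02, at 4.27 and 4.20, and at 3.61 and 3.88. Which transcripts each probe set matches was not examined. With the median over a gene's probe sets in place of the brightest, BUB1 was the 1 gene of the 37 that was not above background (47.0% of all genes were, counted that way).

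The other checkpoint proteins were read well above background. BUB1B, which encodes BUBR1, a part of the inhibitor of the anaphase-promoting complex, had signals of 10.62 and 10.63. MAD2L1, which encodes MAD2, another part of that inhibitor, had signals of 12.04 and 11.99, and its second probe set read 11.14 and 11.28. BUB3, the partner that carries BUB1 and BUBR1 to kinetochores, had signals of 12.77 and 12.82 by a probe set of the _x_at kind, whose probes may match other transcripts. Its 3 further probe sets were also above background. ZWINT, which links the outer kinetochore to checkpoint proteins, had signals of 12.77 and 12.87.

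The 8 kinetochore and centromere genes lay between 8.12 and 10.73 as means of both arrays. NDC80, the microtubule-binding subunit that gives the NDC80 complex its name, had signals of 10.68 in replicate 1 and 10.53 in replicate 2. Its partner NUF2 had signals of 10.27 and 10.10. SPC25, a subunit at the other end of the complex, had signals of 10.02 and 10.07. Thus NDC80 and NUF2 were slightly higher in replicate 1 and SPC25 in replicate 2. CENPA, the histone H3 variant that marks the centromere, had signals of 8.11 and 8.13, by a single probe set of the _x_at kind. CENPE, a kinesin motor of the kinetochore, had signals of 9.54 and 9.71, the largest difference in favour of replicate 2 among the brightest probe sets of the 37 genes. CENPM and CENPN, subunits of the constitutive centromere network, differed by less than 0.01 between the arrays, with means of 10.24 and 10.20. The second CENPN probe set read 7.97 and 8.27. CENPF, a large protein of the outer kinetochore, had signals of 10.74 and 10.72. Its other probe sets read 7.74 and 7.59, above background, and 4.19 and 4.15, below it.

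The chromosomal passenger complex held the gene closest to background. INCENP, its scaffold, had signals of 6.32 in replicate 1 and 6.22 in replicate 2, by 1 probe set, which exceeded the level by 0.17 and 0.13. The reference gene TNNT3 read much the same, at 6.32 in replicate 1 and 6.24 in replicate 2. BIRC5, which encodes survivin, had signals of 10.15 and 10.06, and its 3 further probe sets, between 8.33 and 8.94 as means, were also above background. CDCA8, which encodes borealin, had signals of 9.99 and 10.02. AURKB, the kinase of the same complex, is given above. The INCENP value therefore rests on 1 probe set near the level, whereas the other 3 subunits were each at least 3.84 above the level in replicate 1.

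Genes that drive the exit from mitosis were all above background. CDC20, the activator of the anaphase-promoting complex that the checkpoint inhibits, had signals of 11.31 and 11.27. UBE2C, the ubiquitin-conjugating enzyme of that complex, had signals of 11.52 and 11.65. PTTG1, which encodes securin, had signals of 12.45 and 12.49. Its only probe set is of the _x_at kind, and near-identical copies of the gene exist, so its value is uncertain. ESPL1, which encodes separase, the protease that securin holds back, had signals of 9.45 and 9.35.

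The remaining genes act in the spindle, in cell division and on chromosomes. TPX2, which activates Aurora A on spindle microtubules, had signals of 11.20 and 11.18. PRC1, which bundles microtubules of the central spindle, had signals of 10.51 and 10.57. ANLN, which encodes the cleavage furrow protein anillin, had signals of 9.57 and 9.41, and its second probe set read 8.65 and 8.62. MKI67, the Ki-67 protein widely used to mark proliferating cells, had signals of 10.45 and 10.52, and all 4 of its probe sets were above background. TOP2A, the topoisomerase that untangles sister chromatids, had signals of 12.41 and 12.39, and 11.40 and 11.26 by its second probe set. The transcription factors of the program were above background as well. FOXM1 had signals of 9.20 and 9.15, by a probe set of the _x_at kind. MYBL2, which encodes B-MYB, had signals of 9.80 and 9.75.

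**Figure D2:**
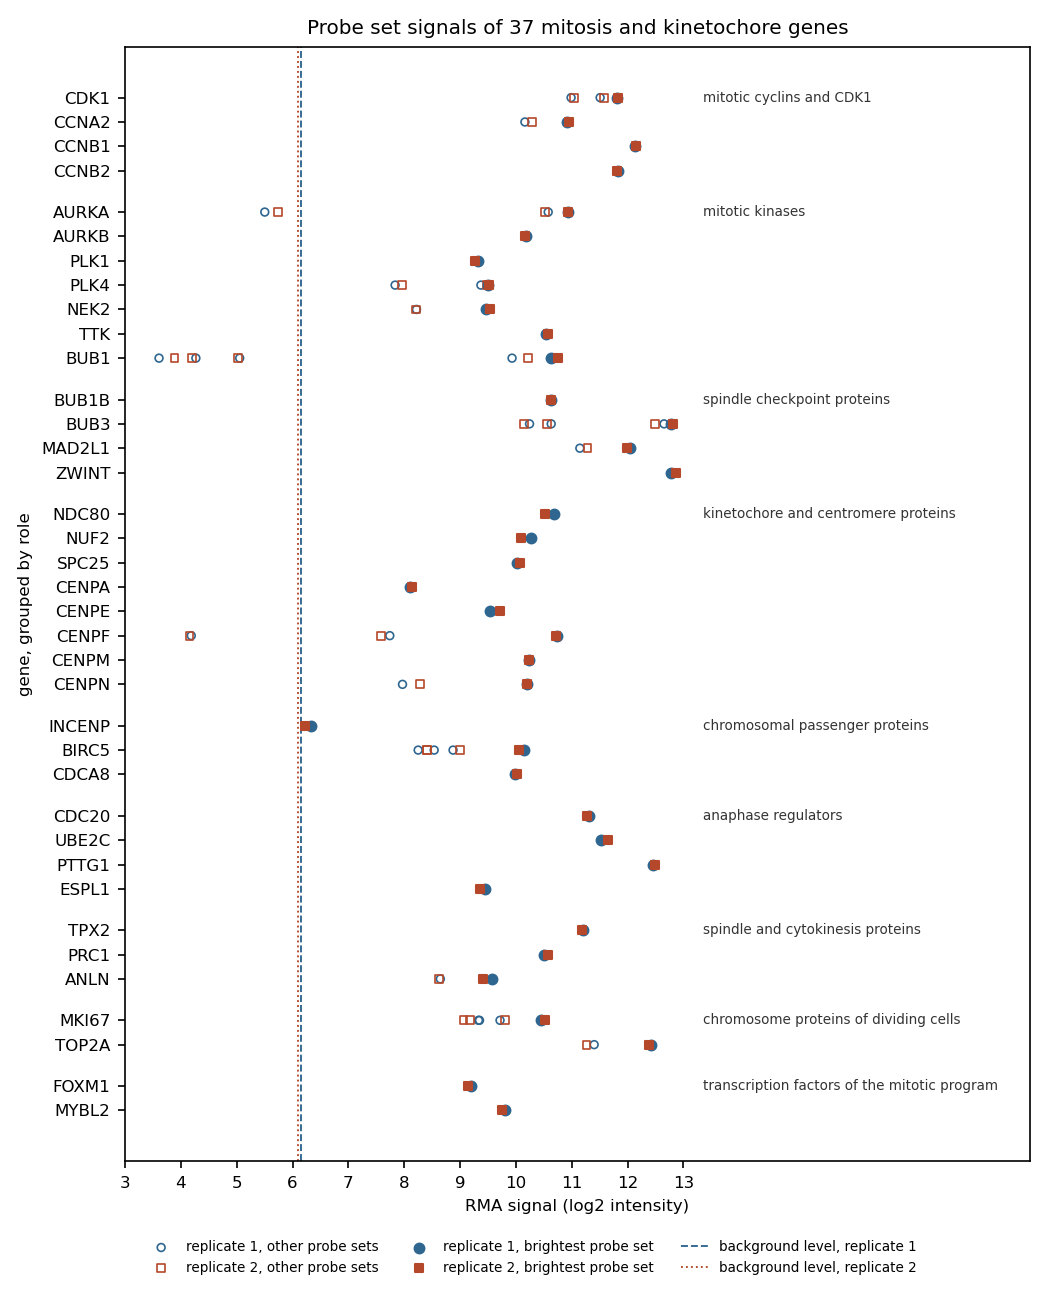
RMA signals (log2 intensity, x axis) of all 64 probe sets of the 37 genes (rows, grouped by role); circles are replicate 1 and squares replicate 2, filled for the brightest probe set of a gene and open for its others, and the vertical lines are the background levels of 6.15 and 6.09. Every filled mark lies to the right of the lines, INCENP closest to them, and 5 probe sets of AURKA, BUB1 and CENPF lie to the left.

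By probe set, 59 of the 64 were above background on both arrays, against 44.3% of all probe sets with 1 symbol, and none was above it on 1 array only. The 5 below were 1 of AURKA, 3 of BUB1 and 1 of CENPF. Of the 14 genes with several probe sets, 11 thus had all of them above background. The other 23 genes rest on 1 probe set each. Of the brightest probe sets, 19 of 37 end in _s_at or _x_at, the manufacturer's marks for probes that may match several transcripts.

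The replicates differed little in these genes. The brightest probe sets differed by between -0.17 (ANLN and NUF2) and 0.17 (CENPE), as replicate 2 minus replicate 1 on the log2 scale, with a median of 0.01. None differed by more than 0.58, about 1.5-fold, against 0.231% of all genes above background, so a count of 0 is near the background. A difference of more than 0.1 was seen in 8 of 37 genes, against 34.4% of all genes above background. When probe sets of the _x_at and _s_at kinds were left out, 13 of 26 measured genes did so. Among those above background it was 12 of 24, against 40.2% of all genes above background. The genes thus lay below all genes above background with one choice of probe sets and above them with the other. With all probe sets the 8 were NUF2, ANLN, NDC80, INCENP and ESPL1, higher in replicate 1, and CENPE, UBE2C and BUB1, higher in replicate 2. In all, 19 of 37 were higher in replicate 2, against 42.3% of all genes above background. The median SD of a pair was 0.03 for the 37 genes and 0.05 for all genes above background. With those kinds left out it was 0.06 for the 24 genes above background and 0.05 for all genes above background. Signal was not matched in these comparisons, and the 37 genes had a median signal of 10.54 against 9.16 for all genes above background. With 1 pair of arrays the differences between replicates have no test.

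**Figure D3:**
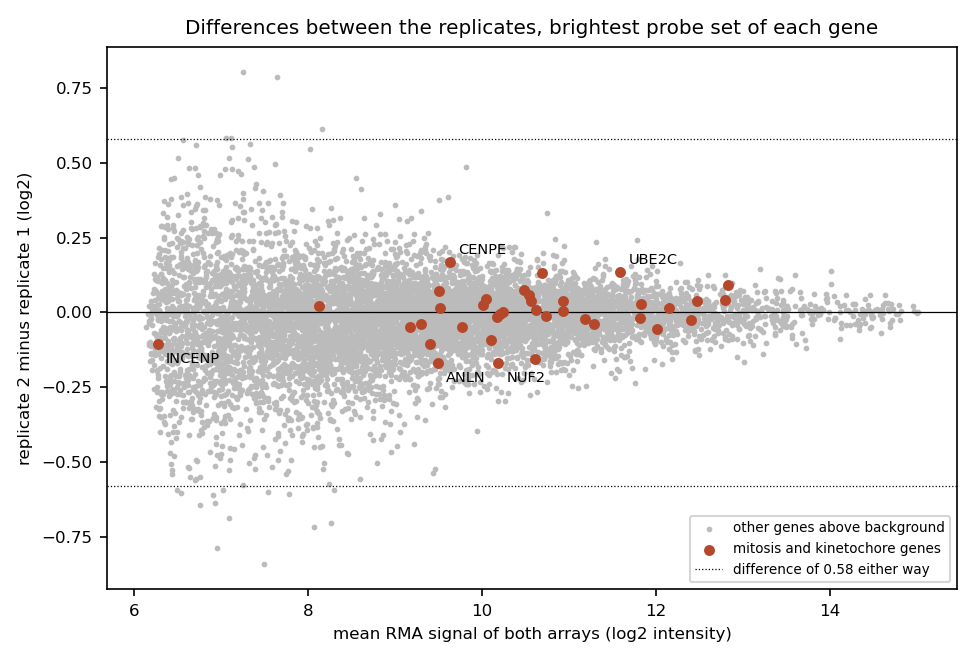
Replicate 2 minus replicate 1 (log2, y axis) against the mean signal of both arrays (log2 intensity, x axis) for the brightest probe set of each of 8234 genes above background; red points are the 37 mitosis and kinetochore genes and dotted lines mark a difference of 0.58 either way. The red points lie between -0.17 and 0.17.

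Within a gene, probe sets could be compared in the direction of these small differences. Of the 14 genes with at least 2 probe sets above background, the 2 brightest pointed the same way in 8, against 51.3% of 3219 genes in all, a share near that of all genes. MKI67 counts among the 8, since its 2 brightest probe sets were both higher in replicate 2 (differences of 0.08 and 0.09). Its other 2 probe sets were higher in replicate 1 (-0.15 and -0.29). For CENPN the brightest probe set did not differ beyond 0.01, whereas the other differed by 0.31, the largest difference among the 59 probe sets above background. TOP2A (-0.02 and -0.14) and CCNA2 (0.04 and 0.12) are cases in which both probe sets pointed the same way.

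A list of 82 other genes of the same machinery, written by role, had 72 measured genes. Of these 67 were above background, as were 49.3% of all measured genes. On the list of the Mis12 complex, KNL1 and inner kinetochore genes, 17 of 19 were above background. Examples were MIS12 (10.08 and 10.22 in replicates 1 and 2), DSN1 (8.08 and 8.03) and NSL1 (10.58 and 10.62), 3 subunits of the complex that joins NDC80 to the centromere. The exceptions were SPC24, the direct partner of SPC25 (4.92 and 4.70, 1 probe set), and CENPT, a centromere protein that recruits NDC80 (5.28 and 5.63, with neither of 2 probe sets above). Thus within the NDC80 complex 3 subunits were read above background and SPC24 was not. The SPC24 value rests on 1 probe set, so it does not show whether the transcript was absent. All 11 checkpoint and outer kinetochore partners were above background, among them MAD1L1, the anchor of MAD2 at kinetochores (8.46 and 8.51), MAD2L1BP, which helps to silence the checkpoint (9.75 and 9.70), and ZW10, which recruits dynein (9.93 and 9.97).

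Of the anaphase-promoting complex and its regulators 12 of 13 were above background, such as the subunits ANAPC2 (7.39 and 7.48), ANAPC4 (10.24 and 10.28) and ANAPC5 (11.33 and 11.28). The exception was FZR1, which encodes the activator that follows CDC20 at mitotic exit. This activator is also called CDH1, but it is not the product of the epithelial marker gene CDH1. The brightest of the 4 FZR1 probe sets had signals of 6.16 in replicate 1 and 5.81 in replicate 2, above the level in replicate 1 alone. Another read 5.74 and 6.22, above it in replicate 2 alone, so no single FZR1 probe set passed on both arrays. All 8 regulators of mitotic entry were above background, including the CDK1-activating phosphatases CDC25A (8.62 and 8.73), CDC25B (9.0 and 8.88) and CDC25C (7.69 and 7.75). All 11 spindle and centrosome genes were too, such as TACC3 (9.55 and 9.50), CKAP5 (9.80 and 9.77) and NUSAP1 (11.96 and 12.01), whose proteins act on spindle microtubules.

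A further list held MYBL1 and subunits of DREAM and MuvB, the complexes that act at the CHR. Of its measured genes 8 of 10 were above background, such as LIN37 (7.69 on both arrays), RBL1 (7.95 and 8.04) and RBL2 (9.53 and 9.58). LIN9, a core subunit of MuvB, was not (3.64 and 3.62, 1 probe set), and neither was MYBL1, the A-MYB relative of MYBL2 (5.80 and 5.69, 1 probe set). Both LIN9 and MYBL1 were thus below the level on each array. In the promoter windows of the 82 listed genes, 31 of 70 held TTTGAA (44.3%) and 42 of 70 held CCAAT (60.0%). TTTGAA on the gene's own strand 40 to 10 bases before the start was found in 3 of those 70 (4.29%).

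**Figure D4:**
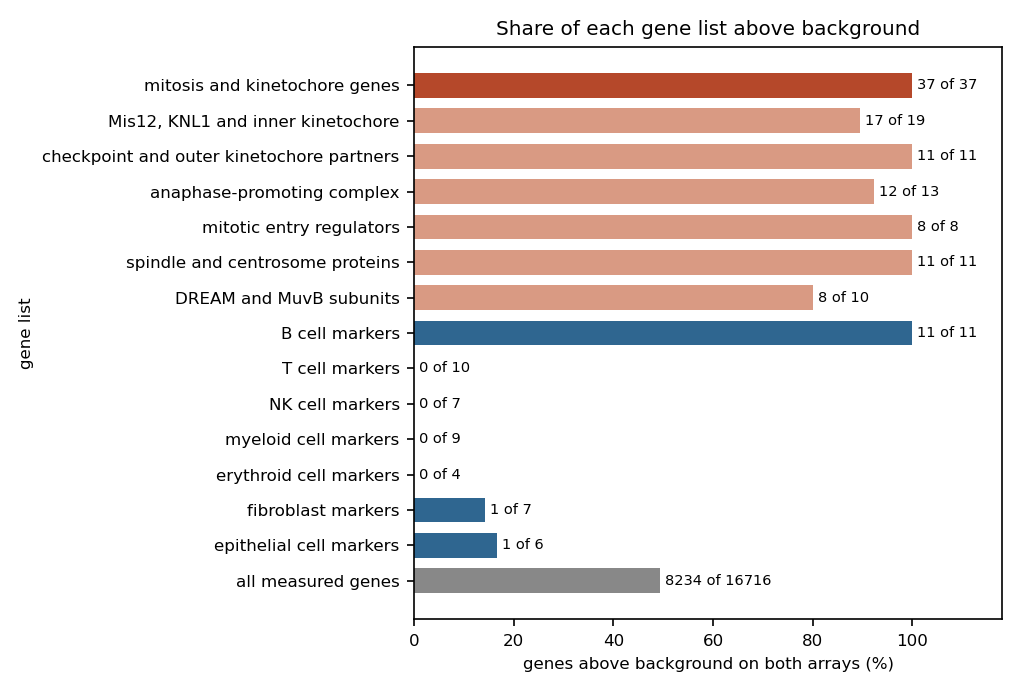
Share of measured genes above background on both arrays (x axis, percent) for the 37 genes, 6 lists of other mitotic genes, 7 lists of cell type markers and all measured genes (rows), with the counts beside the bars. The 37 genes stand at 37 of 37, B-cell markers at 11 of 11 and all measured genes at 8234 of 16716.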

How the data were processed

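Messenger RNA was measured on 2 arrays of 1 lymphoblastoid line, labelled replicates 1 and 2. The authors deposited 1 intensity per probe set and array, made with RMA per the submitters' processing notes (version not given in the sources used here). The deposited intensities ran from 6.29 to 33093 and are linear, so log2 was taken. The arrays had nearly the same distribution (at most 0.14 apart at any rank, in log2), so a change in total messenger RNA cannot be seen. RMA gives no detection call, and the number of arrays limits the precision. Of 36289 probe sets, 29493 had 1 gene symbol in the platform annotation, 1407 several and 5389 none; further probe sets of the array were not analysed here. Symbols were updated by Entrez ID from RefSeq (GRCh38.p14; 29461 matched).

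The background level used 68 measured of 80 listed tissue-restricted genes. Named genes were all 37 members and, from each other mitotic list, the first 3 measured and up to 5 not above background. The members and lists were chosen with earlier results of these data known. Motifs were counted per gene, in any of its RefSeq windows. The steps were run on arrays simulated from the measured means, which checks the steps and not whether a gene's call is right. Python 3.11.15, pandas 2.3.3, numpy 2.4.6 and matplotlib 3.10.9 were used.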

Additional observations from a re-analysis of the deposited data

How the results depend on the processing

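No paired analysis was possible because the series has 1 group. All 37 genes stayed above background when the 75th percentile of the tissue-restricted genes set the level (62.3% of all genes above it), when the median of all probe sets did (57.4%), and when either replicate was left out (37 to 37 genes). The count was also 37 without MBP and KRT10, the brightest of those tissue-restricted genes, an alternative chosen after seeing the data (52.2% of all genes). It was 36 with the median over a gene's probe sets (47.0% of all genes) and 34 when every probe set had to pass (34.9% of all genes). The 99th percentile, which KRT10 and MBP set at 10.59 and 10.67 on the log2 scale, left 15 of 37 (10.3% of all genes). Leaving out probe sets ending in _x_at or _s_at gave 24 of 26, because 11 genes were no longer measured and AURKA and CENPF were not above background (45.3% of all genes were). For the other mitotic genes, 67 of 72 in the report, the 99th percentile gave 16 and the smaller choice of probe sets 44 of 51. Either replicate alone gave 68 (68 to 68), and the other alternatives between 56 and 71. The shares of all genes are those given above for each setting, except with either replicate left out. In those settings the share of all genes above background was slightly higher than with both arrays. The median difference of the 37 genes (0.01) lay between 0.00 and 0.02 under all 6 alternatives, and none of the measured genes differed by more than 0.58 under any of them. Differences of more than 0.1 were found in 13 of 26 genes without probe sets ending in _x_at or _s_at, where they reached 0.31, against 8 of 37 with all probe sets. INCENP, by a single dim probe set, is the value that closeness to the level limits most.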

Other observations

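Some promoters of these genes faced another annotated start on the opposite strand. In the RefSeq table, 12 of the 29 genes with a window had such a start within 1000 bases before their own, against 20.1% of all 27305 genes. The share among genes above background was not counted. Of these partners 4 were measured on the arrays, and all 4 were above background, against 75.5% of the 1195 measured partners of other genes above background. They were METTL4, 52 bases from the start of NDC80 (log2 signals of 8.0 in replicate 1 and 7.82 in replicate 2), RGS5, 219 bases from NUF2 (6.51 and 6.79), CMC2, 329 bases from CENPN (10.97 and 10.92), and AIRIM, 274 bases from CDCA8 (8.18 and 8.30). The other partners were not measured, and their names begin with LOC or end in -DT. All partners were chosen after the table was searched, and the counts are too few to set the genes apart.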
